A study of Mus musculus with 8 samples.

Results

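Complement components and regulators were followed by transcript level in mouse hepatic stellate cells. The set was a list of 8 genes given by symbol: C2, C3, C4b, Cfb, Cfd, Cfi, Cfp and Serping1. Of these, 6 had a probe set with a single gene symbol, among 22180 genes measured, and C3 and Cfd were not analysed here. The list was not chosen by a threshold on values, but its members were chosen with earlier results of these data known. It covers the proteins that start or amplify complement (C4b, C2, Cfb, Cfp) and those that restrain it (Serping1, Cfi).

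Hepatic stellate cells are liver pericytes that store retinoids and turn into matrix-producing cells after injury or on plastic. There were 8 arrays of primary cells from BALB/c mice, 2 per group. Quiescent cells came from healthy livers and were taken at 0 hours, never seeded. Cultured cells were quiescent cells kept on plastic for 10 days. Fibrotic mice given carbon tetrachloride (CCl4), a toxin of hepatocytes, for 2 or 4 weeks supplied the in vivo activated cells, which were not seeded either. The labels used here give neither the age or sex of the mice nor whether animals were pooled. A treatment text shared by all 8 samples names 2.5 mM valproic acid after seeding, and the labels do not say whether it was given to the cultured samples.

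Complement is a cascade of plasma proteases and receptors, made largely in the liver, that marks particles for uptake and can open pores in membranes. The classical and lectin routes cut C4 and C2 to form one C3 convertase. The alternative route builds another from factor B, which properdin holds together. C1 inhibitor blocks the proteases at the start, and factor I cuts C3b and C4b. Hepatocytes are the main source of many of these proteins, while macrophages and stromal cells make some of them, so the markers of other liver cells are given beside the results.

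Levels are log2 values after robust multi-array averaging (RMA), in which a step of 1 is a doubling of signal. A level can be compared between arrays for 1 gene, not between genes. Array medians ran from 4.63 to 4.72 log2 units. As a guide to dim signal, 1373 olfactory and vomeronasal receptor genes had a 95th percentile of 4.75 log2 units. A gene was called where the adjusted p of a limma fit to all genes was under 0.05. Changes are log2 differences ± standard error (SE) with 2 arrays per group.

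The cells carried their labels' markers with other liver RNA beside them. Lrat, the retinol esterifying enzyme of stellate cells, was at 10.95 to 11.29 log2 units on the 6 unseeded arrays and at 7.21 and 5.74 in culture. Acta2, smooth muscle actin of activated stellate cells, was at 6.78 and 7.24 in quiescent cells and at 11.70 to 12.71 on the other 6 arrays. The median of 10 quiescent stellate markers was 10.31 and 10.76 in quiescent cells and 7.33 and 6.63 in culture. It was 10.76 and 11.00 after 2 weeks of CCl4 and 10.97 and 10.96 after 4 weeks. Gene by gene these markers mostly went down after CCl4, which a median of levels does not show. Their median change from quiescent cells was -0.70 at 2 weeks, with 9 of 10 below 0. At 4 weeks it was -0.64, with 8 of 10 below 0. Of these 10, 8 were called lower in culture, and 4 lower and 1 higher at each CCl4 time. The 1 called higher was Pdgfrb, which also stands in the list of activated stellate markers used below. The median of 14 hepatocyte markers was 9.18 and 8.47 in quiescent cells, 4.78 and 4.95 in culture, 7.06 and 7.85 after 2 weeks of CCl4, and 6.50 and 6.25 after 4 weeks. For 12 sinusoidal endothelial markers these medians were 9.57 and 8.47 in quiescent cells, at most 5.35 in culture, 7.20 and 7.61 at 2 weeks, and 6.40 and 6.72 at 4 weeks. For 13 Kupffer cell and macrophage markers they were, in the same order, 7.66 and 8.49, 6.31 and 6.42, 7.68 and 7.86, and 6.17 and 6.50. Hepatocyte and endothelial medians were thus highest on the quiescent arrays, and the macrophage median on the quiescent and 2-week arrays. The median of 7 portal fibroblast and mesothelial markers was 5.22 and 5.70 in quiescent cells and 5.05 and 4.99 in culture. After CCl4 it was higher, 6.83 and 6.70 at 2 weeks and 6.56 and 6.85 at 4 weeks. Gene by gene the change was smaller, with a median of 0.84 at 2 weeks and 0.35 at 4 weeks and 5 of 7 above 0 at each. The rise did not cover the whole list: Thy1, Msln, Upk3b and Gpm6a were called at neither time, and Upk3b and Gpm6a were below 0 at both. For 11 monocyte and neutrophil markers the median was between 4.36 and 5.68 on all 8 arrays, with Ccr2 alone called higher after CCl4, and for 9 lymphocyte markers between 3.89 and 4.23. The part of these cells in the results below was not tested. In RNA from a mixture of cells, fewer cells of a type and less RNA per cell cannot be told apart.

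**Figure D1:**
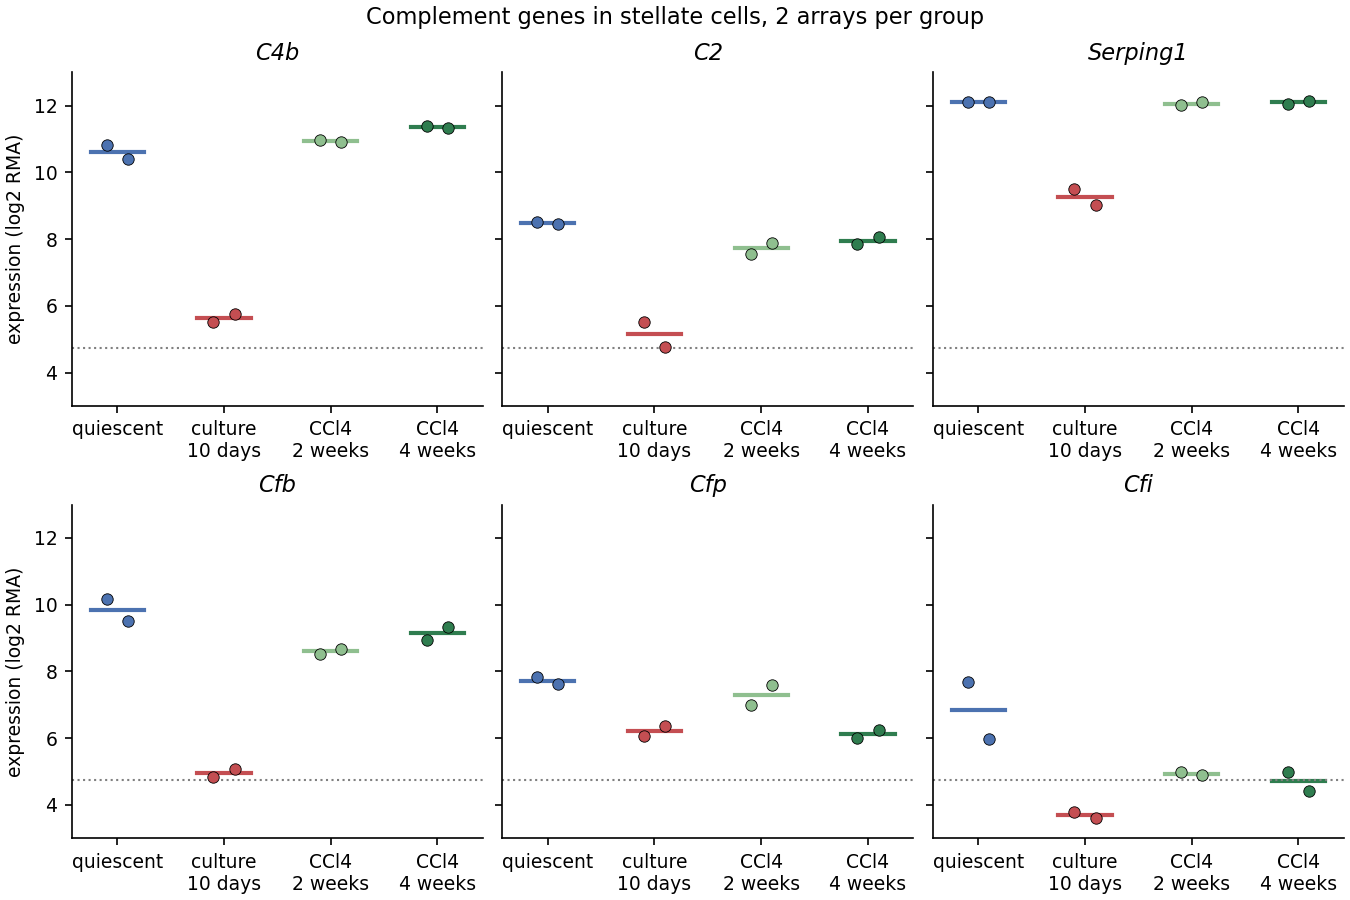
Level of each of the 6 measured complement genes (vertical axes, log2 RMA) on every array, in quiescent cells, 10-day culture, and 2 or 4 weeks of CCl4; each point is 1 array, each bar a group mean, and the dotted line is the 95th percentile of the receptor genes used as a guide to dim signal, 4.75. All 6 genes were called lower in culture than in quiescent cells, where 10.3% of all genes were. Serping1 stayed between 12.01 and 12.15 on the 6 unseeded arrays, and the Cfp values after 4 weeks of CCl4 overlapped those in culture.

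In culture, all 6 complement genes fell. C4b, component 4 of the classical and lectin routes, fell most, by 4.97 on the log2 scale (31.4-fold), and Cfp, properdin, fell least, by 1.51 (2.86-fold). In the comparison of culture with quiescent cells, 10.3% of all genes tested were lower and 12.9% higher. Because the members were chosen with earlier results known, the count of 6 of 6 lower is a description and not a test of the set. After CCl4 the 6 genes did not move as one. Against quiescent cells, Cfb alone was called at 2 weeks, lower, where 2.43% of all genes were lower and 2.34% higher. At 4 weeks C4b was higher and Cfp and Cfi were lower, where 4.04% of all genes were higher and 4.67% lower. Between 4 and 2 weeks limma called 0 of the 6, and 3 had an unadjusted p under 0.05. There, 0.0271% of all genes were higher and 0.0586% lower. These comparisons share arrays: the same 2 quiescent arrays stand in each comparison with quiescent cells.

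C4b is cleaved by the C1s and MASP proteases to begin a convertase. Its level was 10.81 and 10.41 log2 units in quiescent cells and 5.51 and 5.76 in culture. After 2 weeks of CCl4 it was 10.96 and 10.90, and after 4 weeks 11.38 and 11.32. Both culture arrays lay far below all others, and the 4-week arrays were the highest of the 8. The fall in culture was -4.97 ± 0.17 (limma, adjusted p = 3.8e-07). The rise at 4 weeks was 0.74 ± 0.17, or 1.67-fold (limma, adjusted p = 0.0298), while the difference at 2 weeks was 0.32 with a 95% interval of -0.06 to 0.71 (adjusted p = 0.399). In descending order the groups stood as 4 weeks, 2 weeks, quiescent and culture. The neighbours among the first 3 did not differ past the threshold (4 against 2 weeks 0.42, adjusted p = 0.567).

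The call of C4b at 4 weeks rested on the whole set of arrays. Leaving out quiescent replicate 2 gave 0.54 (adjusted p = 0.109). Leaving out 4-week replicate 1 gave 0.71 (adjusted p = 0.172), and replicate 2, 0.77 (adjusted p = 0.131). Leaving out either 2-week array gave an adjusted p of 0.051, so the call was lost in these 5 fits. With only the groups compared in the fit, the adjusted p was 0.0773. The near-identical gene C4a, a transcribed pseudogene in RefSeq, was at 6.39 and 4.55 in quiescent cells, 3.16 and 3.58 in culture, 3.45 and 3.62 at 2 weeks, and 3.30 and 4.14 at 4 weeks. Whether the C4b probe set also reads C4a was not tested.

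C2, the serine protease that joins C4b in the convertase, was at 8.52 and 8.44 log2 units in quiescent cells and at 5.52 and 4.77 in culture. It was at 7.56 and 7.89 after 2 weeks of CCl4 and at 7.86 and 8.05 after 4 weeks. The culture arrays were apart from the other 6, and every CCl4 array was below both quiescent arrays. The difference in culture was -3.34 ± 0.24, 10.1-fold lower (limma, adjusted p = 1.99e-05). The differences at 2 weeks (-0.76 ± 0.24, adjusted p = 0.128) and at 4 weeks (-0.53 ± 0.24, adjusted p = 0.256) did not pass the threshold. The 95% interval at 4 weeks ran from -1.07 to 0.01, which includes values from a fall of about that size to no change. The groups stood in the order quiescent, 4 weeks, 2 weeks and culture, and the 4- and 2-week arrays differed by 0.23 (adjusted p = 0.886).

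Cfb, factor B, supplies the protease of the alternative convertase, and its gene lies next to C2 on mouse chromosome 17. It was at 10.17 and 9.51 log2 units in quiescent cells, 4.83 and 5.06 in culture, 8.52 and 8.67 after 2 weeks of CCl4, and 8.95 and 9.32 after 4 weeks. No CCl4 array reached the lower quiescent array, and the culture arrays were near the guide to dim signal. The difference in culture was -4.89 ± 0.23, 29.7-fold lower (limma, adjusted p = 2.32e-06).

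The fall of Cfb at 2 weeks was -1.24 ± 0.23 (limma, adjusted p = 0.0188). It did not pass when quiescent replicate 1 was left out (-0.91, adjusted p = 0.057). Nor did it pass when 2-week replicate 1 (-1.17, adjusted p = 0.144) or replicate 2 (-1.32, adjusted p = 0.0749) was left out. The call was also lost with only the groups compared in the fit (adjusted p = 0.0708). At 4 weeks the difference was -0.70 ± 0.23 (adjusted p = 0.108), and it passed without quiescent replicate 2 (-1.03, adjusted p = 0.0178). The order of levels was quiescent, 4 weeks, 2 weeks and culture, with 0.54 between the CCl4 times (adjusted p = 0.593).

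Cfp encodes properdin, the stabiliser of the alternative convertase, which is made mainly by myeloid cells. Its level was 7.82 and 7.62 log2 units in quiescent cells and 6.06 and 6.35 in culture. It was 6.98 and 7.59 after 2 weeks of CCl4 and 5.99 and 6.23 after 4 weeks. The 4-week and culture arrays overlapped and lay below the other 4. The difference was -1.51 ± 0.22 in culture (limma, adjusted p = 0.00108) and -1.61 ± 0.22 after 4 weeks of CCl4, 3.05-fold lower (limma, adjusted p = 0.00294). At 2 weeks it was -0.43 ± 0.22 (adjusted p = 0.373).

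Both falls of Cfp were kept in all 8 fits that left out 1 array. From 2 to 4 weeks Cfp differed by -1.18 ± 0.22 (unadjusted p = 0.000474, adjusted p = 0.115), which did not pass over all genes. Of the 13 macrophage markers, 11 were lower and 1, Lyz2, higher in culture than in quiescent cells, and 10 were lower at 4 weeks. Clec4f, the Kupffer cell lectin, was at 7.61 and 8.68 in quiescent cells, 5.36 and 5.54 in culture, 7.68 and 7.82 at 2 weeks, and 6.17 and 5.82 at 4 weeks. The part of macrophage RNA in the Cfp values was not tested.

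The Cfp promoter is shown because Cfp is known from myeloid cells, fell where most macrophage markers were lower, and was the only measured member in the RefSeq promoter table used here. It is 250 bases before to 50 after the gene's start, on GRCm38.p6, chrX:20931506-20931805, minus strand, 5′ to 3′. The capitals mark matches to GAGGAA, the core letters bound by PU.1, a transcription factor of myeloid cells, read on the opposite strand as TTCCTC.

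Cfp promoter: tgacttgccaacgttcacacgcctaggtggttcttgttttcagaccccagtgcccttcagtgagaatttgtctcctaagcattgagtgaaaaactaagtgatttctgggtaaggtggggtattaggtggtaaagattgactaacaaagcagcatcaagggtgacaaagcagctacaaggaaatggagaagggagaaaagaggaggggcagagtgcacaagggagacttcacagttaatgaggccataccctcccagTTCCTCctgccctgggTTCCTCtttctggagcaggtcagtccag

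The 2 matches began at bases 257 and 273 of the window, 7 and 23 bases after the start, and did not overlap. The letters GAGGAA stood on either strand in 28.3% of 32851 promoter windows of the same length, so a match by itself is common. Searched on both strands, TTGCNNAA (C/EBP) stood in 10.8% of windows, TTCNNNGAA (STAT) in 8.3%, GAAANNGAA (IRF) in 8.6% and TGANTCA (AP-1) in 7.8%. GGAATG (TEAD) stood in 14.7%, TATAAA in 13.6% and the kappaB consensus in 8.5%. None of these 7 stood in the Cfp window, which says only that the letters are not in it.

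Serping1, C1 inhibitor, blocks the C1 and MASP proteases and so acts before C4 and C2. It was at 12.11 and 12.12 log2 units in quiescent cells, 12.01 and 12.10 after 2 weeks of CCl4, and 12.04 and 12.15 after 4 weeks. In culture it was at 9.50 and 9.02. The 6 unseeded arrays spanned 12.01 to 12.15 and the culture arrays lay apart. The 4-week and quiescent arrays overlapped, while both 2-week arrays were just below both quiescent arrays. The difference in culture was -2.85 ± 0.17, 7.23-fold lower (limma, adjusted p = 8.45e-06). At 2 weeks it was -0.07, with a 95% interval of -0.46 to 0.33. At 4 weeks it was -0.02, with an interval of -0.42 to 0.37. Those intervals bound a change after CCl4 and do not show that there was none.

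Cfi, factor I, is the protease that cuts C3b and C4b once a cofactor holds them. Its level was 7.69 and 5.98 log2 units on the quiescent arrays, a gap of 1.70, and 3.78 and 3.60 in culture. After 2 weeks of CCl4 it was 4.98 and 4.89, and after 4 weeks 4.99 and 4.41. Both quiescent arrays were above all others, and the culture arrays were below the guide to dim signal. The difference in culture was -3.14 ± 0.45 (limma, adjusted p = 0.00107), a size set against that dim signal. It was -1.90 ± 0.45 at 2 weeks (adjusted p = 0.0503) and -2.14 ± 0.45 at 4 weeks, 4.4-fold lower (limma, adjusted p = 0.0217).

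The CCl4 values of Cfi sat near the threshold. At 2 weeks the call was made without quiescent replicate 2 (-2.75, adjusted p = 0.000394). At 4 weeks it did not pass when 4-week replicate 1 (-2.43, adjusted p = 0.0797) or replicate 2 (-1.85, adjusted p = 0.156) was left out. Nor did it pass with only the groups compared in the fit (adjusted p = 0.0838). Quiescent replicate 1 was also higher than replicate 2 over the hepatocyte markers, with a median difference per gene of 0.83. The same median was 0.90 over the endothelial markers and 1.06 over the monocyte and neutrophil markers. It was -0.60 over the activated stellate, -0.21 over the macrophage and -0.20 over the quiescent stellate markers. The gap between the quiescent arrays was 0.66 for Cfb, 0.40 for C4b, 0.19 for Cfp, 0.08 for C2 and -0.01 for Serping1. The part of RNA from hepatocytes or other cells in these values was not tested.

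**Figure D2:**
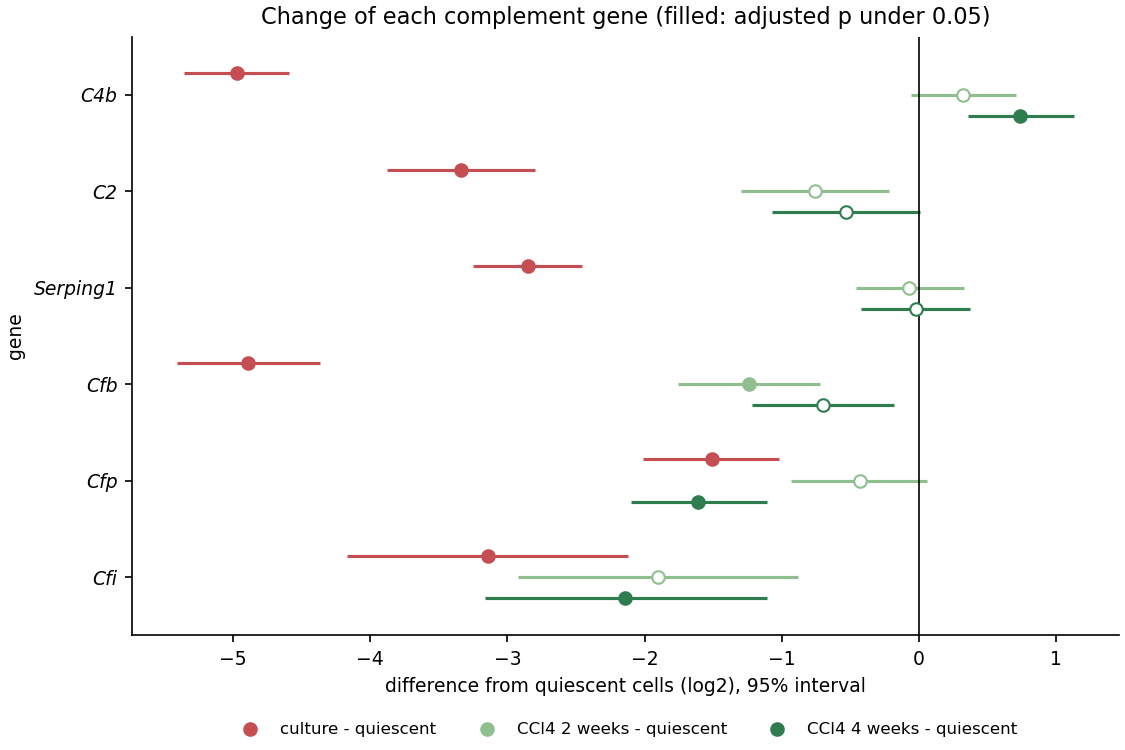
Log2 difference from quiescent cells (horizontal axis) for each complement gene, with 95% intervals from the limma fit, in culture and after 2 or 4 weeks of CCl4; filled points have an adjusted p under 0.05. The culture differences run from -4.97 for C4b to -1.51 for Cfp, and after CCl4 only C4b at 4 weeks is called above 0.

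Culture was also set against the mean of both CCl4 times, which tests whether the 2 ways of activation left different levels. Of the 6 genes, 4 were lower in culture: C4b by 45.5-fold (-5.51 ± 0.15, limma adjusted p = 8.7e-08), Cfb by 15.1-fold (-3.92 ± 0.20), Serping1 by 7.01-fold (-2.81 ± 0.15) and C2 by 6.46-fold (-2.69 ± 0.21). The largest adjusted p among these 4 was 3.4e-05. Over all genes, 8.72% were lower and 12.6% higher in this comparison. Cfi (-1.13 ± 0.39, adjusted p = 0.0762) and Cfp (-0.49 ± 0.19, adjusted p = 0.105) did not pass. Cfi passed without either quiescent array (adjusted p = 0.00167 each), and Cfp passed without 2-week replicate 1 (-0.65, adjusted p = 0.0274). On the culture arrays the hepatocyte marker Alb, albumin, was at 4.42 and 4.17 log2 units against 9.23 to 11.12 after CCl4. Lrat, of stellate cells, was at 7.21 and 5.74 against 10.95 to 11.11.

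**Figure D3:**
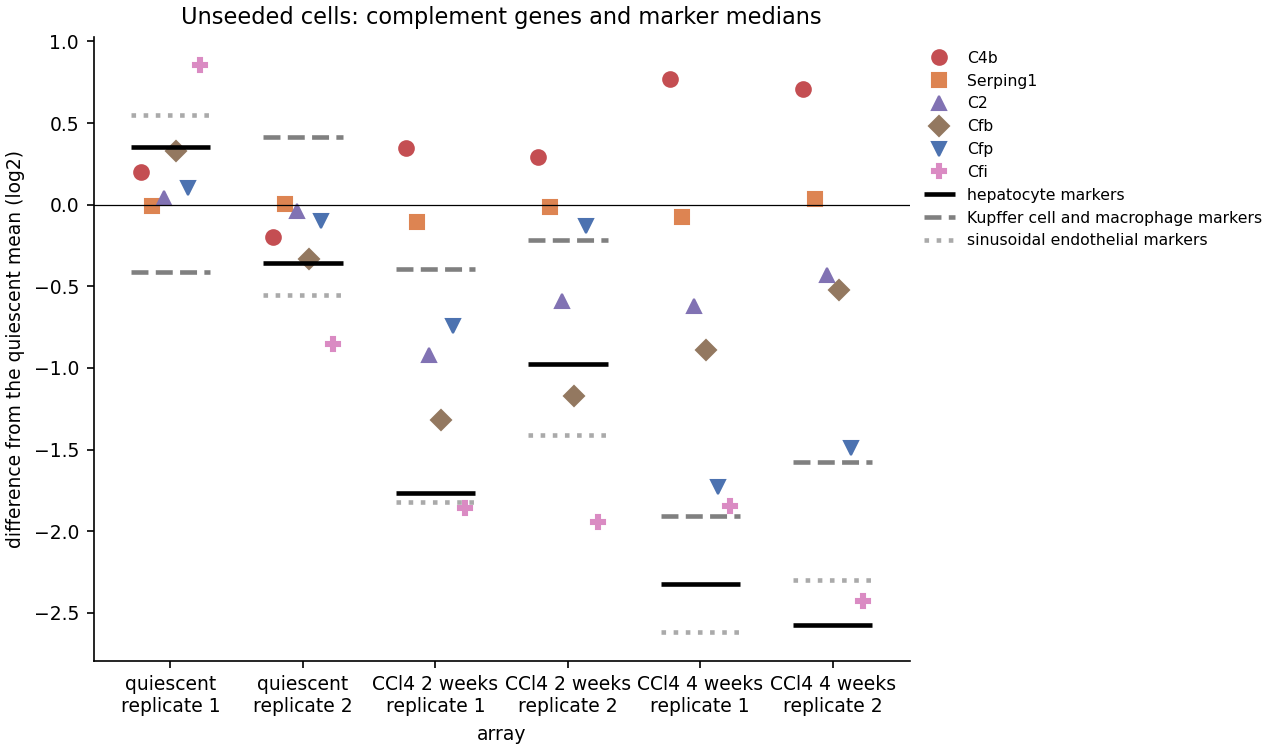
Difference from the quiescent mean (vertical axis, log2) on each of the 6 arrays of unseeded cells, for the 6 complement genes (symbols) and the medians of hepatocyte, Kupffer cell and macrophage, and sinusoidal endothelial markers (lines). On the 4 CCl4 arrays C4b lies above the quiescent mean and Serping1 close to it. On the same 4 arrays C2, Cfb, Cfp and Cfi lie below it, as do the hepatocyte and endothelial medians.

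On the 4 CCl4 arrays the members can be read beside the markers. Of 14 hepatocyte markers, 5 were lower than in quiescent cells at 2 weeks and 12 at 4 weeks, and of 12 endothelial markers 7 and 10 were lower. Of 13 macrophage markers, 1 was lower and 2 higher at 2 weeks and 10 were lower at 4 weeks. At 4 weeks C4b was at 11.38 and 11.32 against 10.81 and 10.41, where Alb was at 9.57 and 9.23 against 11.90 and 11.63. Cfi and Cfp were lower at 4 weeks, as were most hepatocyte and macrophage markers. C2 and Cfb lay below both quiescent arrays on all 4 CCl4 arrays, though of these only Cfb at 2 weeks was called. Of the 7 portal fibroblast and mesothelial markers, 3 were higher than in quiescent cells at 2 weeks and 2 at 4 weeks. Those 2 were Fbln2 (1.70 ± 0.27, limma adjusted p = 0.00585) and Cd34 (1.58 ± 0.21, limma adjusted p = 0.00297). The call of Fbln2 was lost without 4-week replicate 2 (adjusted p = 0.0545). In culture, where C4b was at 5.51 and 5.76, Fbln2 was at 10.10 and 10.05 log2 units and Cd34 at 4.53 and 4.61. All 8 activated stellate markers, Pdgfrb among them, were also higher than in quiescent cells at both CCl4 times. The part of portal fibroblast and mesothelial cells in the C4b values was not tested.

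The other genes of the system were read from a list of 58 complement genes by role, of which 53 had a probe set here and 6 are the members above. In culture 35 of the 53 fell and 2 rose, with a median of -1.64 against 0.01 over all genes, of which 10.3% fell and 12.9% rose. At 4 weeks of CCl4 20 fell and 1, C4b, rose, with a median of -0.56 against -0.00. There 4.67% of all genes fell and 4.04% rose. At 2 weeks 10 fell and 1 rose, with a median of -0.66 against 0.00, where 2.43% of all genes fell and 2.34% rose. Set against the mean of both CCl4 times, 16 were lower and 2 higher in culture, with a median of -0.37. Of all genes, 8.72% were lower and 12.6% higher there. The counts by role below stand beside the same shares. Of the 53, 5 also stand in the marker lists (C1qa, C1qb, C1qc, Itgam and Vsig4).

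Single arrays moved the CCl4 counts of the list. The 21 calls at 4 weeks became 9 without 4-week replicate 1 and 11 without replicate 2. The 11 calls at 2 weeks became 2 and 5 without 2-week replicates 1 and 2, and 7 without either 4-week array. Leaving out quiescent replicate 1 gave 7, and quiescent replicate 2, 24. In culture the count of 37 ran from 31 to 38.

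**Figure D4:**
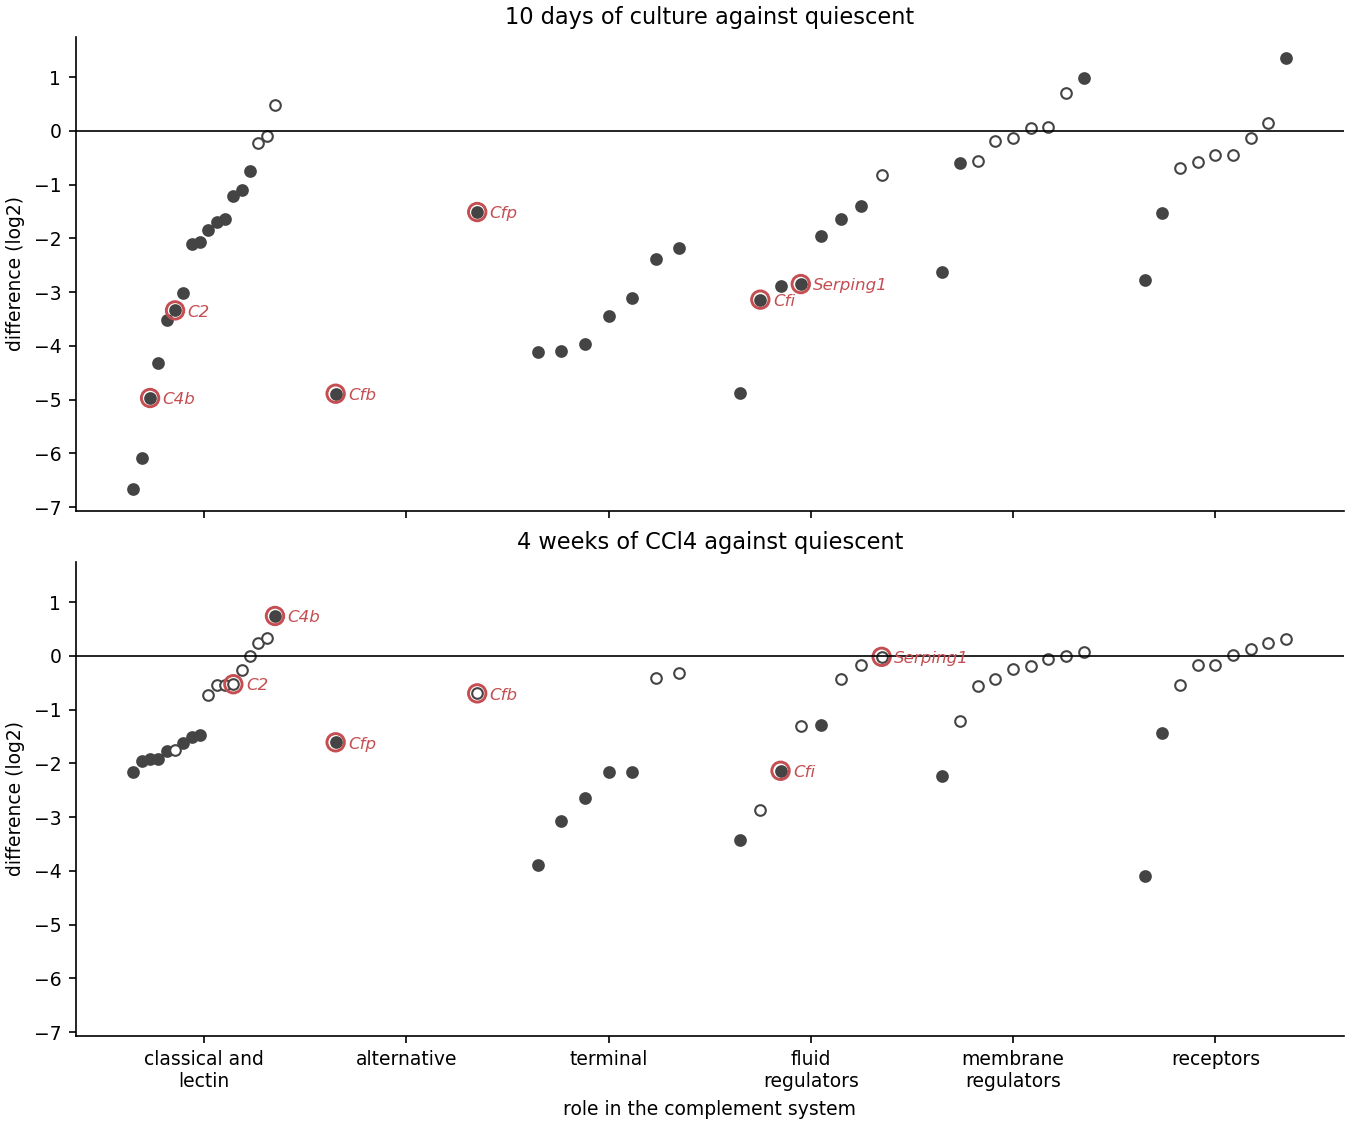
Log2 difference from quiescent cells (axis in log2 units) of the 53 measured complement genes, grouped by role, in culture and after 4 weeks of CCl4; each point is 1 gene, filled where the adjusted p is under 0.05, and the ringed points are the 6 genes of the set. In culture the terminal genes lie between -4.12 and -2.18, whereas membrane regulators run from -2.62 to 0.98 and receptors from -2.77 to 1.35.

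Among 18 genes that start the classical and lectin routes, 15 fell in culture and 0 rose. At 4 weeks 8 fell and C4b rose, with a median of -1.10. Colec11, the lectin-route collectin CL-K1, had the lowest value in culture. It was at 10.83 and 11.25 log2 units in quiescent cells and 4.63 and 4.10 in culture (-6.67 ± 0.25, limma adjusted p = 5.67e-07). Both culture levels were below the guide to dim signal, so the size of that fall and its rank are set against background. It stood at 9.27 and 9.78 at 2 weeks and 8.95 and 9.27 at 4 weeks, a fall at 4 weeks of -1.93 ± 0.25 (adjusted p = 0.00249). C1s2 had the highest value in culture, 0.48 ± 0.23 (adjusted p = 0.192), with all 8 of its levels below the guide to dim signal.

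Fcna, ficolin A, a lectin of macrophages, fell most of this role at 4 weeks. It was at 11.31 and 11.62 log2 units in quiescent cells, 8.95 and 8.91 at 2 weeks, and 9.12 and 9.47 at 4 weeks. The difference was -2.54 ± 0.20 at 2 weeks (limma, adjusted p = 0.000328) and -2.17 ± 0.20 at 4 weeks (adjusted p = 0.000475). Over the 13 macrophage markers the median change was -0.12 at 2 weeks and -1.63 at 4 weeks, so Fcna did not follow their course. The part of macrophage RNA in the Fcna values was not tested. C1ra and C1s1, which encode the C1r and C1s proteases of the C1 complex, were chosen after their values were seen. C1ra differed by -3.52 ± 0.20 in culture (adjusted p = 6.92e-06) and, after 4 weeks of CCl4, by -0.26 ± 0.20 (adjusted p = 0.58). C1s1 differed by -3.02 ± 0.18 (adjusted p = 7.34e-06) and 0.33 ± 0.18 (adjusted p = 0.36).

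All 7 terminal genes, whose products build the membrane pore, fell in culture, and 5 fell at 4 weeks. Hc, component C5, had the lowest value in both, -4.12 ± 0.39 in culture (limma, adjusted p = 0.000106) and -3.90 ± 0.39 after 4 weeks of CCl4 (adjusted p = 0.000709). C8b had the highest in culture, -2.18 ± 0.33 (adjusted p = 0.00131), and C7 the highest at 4 weeks, -0.32 ± 0.47 (adjusted p = 0.807). Hc was at 3.72 and 3.84 log2 units in culture and 4.11 and 3.89 at 4 weeks, below the guide to dim signal. C7, C8a and C9 were below it in culture too, so these sizes and their order are set against background. On the quiescent arrays all 7 were higher in replicate 1 than in replicate 2, by 0.96 to 2.14. The hepatocyte, endothelial, and monocyte and neutrophil markers went in the same direction. That shared gap was not tested as a cause.

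Of 8 regulators in plasma, Serping1 and Cfi among them, 7 fell in culture and 3 at 4 weeks. Vtn, vitronectin, which keeps the terminal complex out of membranes, was lowest in both: -4.87 ± 0.53 in culture (limma, adjusted p = 0.000222) and -3.43 ± 0.53 after 4 weeks of CCl4 (adjusted p = 0.00533). The call at 4 weeks was lost without 4-week replicate 1 (adjusted p = 0.0545). Cfhr2 had the highest value in culture, -0.83 ± 0.33 (adjusted p = 0.114), and Serping1 had the highest at 4 weeks. Every level of Cfhr2 was below the guide to dim signal, so its rank is set against background.

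Of 9 membrane regulators, 2 fell and 1 rose in culture, where 10.3% of all genes fell and 12.9% rose. At 4 weeks 1 fell, where 4.67% of all genes did. Of the 2 falls in culture, that of Cd55b (-0.59 ± 0.18, limma adjusted p = 0.0456) is named for its dim signal. Its levels were at most 3.95 log2 units, all below the guide to dim signal. Its call was lost in 6 of the 8 fits that left out 1 array. Cd55, decay-accelerating factor, fell in culture by 2.62 on the log2 scale (± 0.53, limma adjusted p = 0.00658), a call lost without culture replicate 2 (adjusted p = 0.0532). Its fall at 4 weeks, -2.24 ± 0.53 (adjusted p = 0.0329), was lost in the 6 fits that left out a culture, 2-week or 4-week array, with adjusted p from 0.0526 to 0.188. Cd59b, an inhibitor of pore assembly, rose in culture from 4.99 and 5.35 to 6.52 and 5.77 log2 units (0.98 ± 0.24, adjusted p = 0.0158). Leaving out quiescent replicate 1 gave an adjusted p of 0.0846 for that rise, and leaving out culture replicate 1 gave 0.0848. Cr2 had the highest value at 4 weeks, 0.07 ± 0.14 (adjusted p = 0.866), with every level below the guide to dim signal.

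Of 9 receptors and receptor subunits, 2 fell and 1 rose in culture, where 10.3% of all genes fell and 12.9% rose. At 4 weeks 2 fell, where 4.67% of all genes did. C3ar1, the receptor of the C3a fragment, was at 5.27 and 5.96 log2 units in quiescent cells, 6.85 and 7.08 in culture, 7.08 and 7.27 at 2 weeks, and 5.77 and 5.93 at 4 weeks. It rose in culture (1.35 ± 0.22, limma adjusted p = 0.00228) and after 2 weeks of CCl4 (1.56 ± 0.22, adjusted p = 0.00642), with the 4-week and quiescent arrays overlapping. The rise at 2 weeks was lost without either 2-week array (adjusted p = 0.0507 and 0.0514).

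Vsig4, the Kupffer cell receptor for C3b, was at 9.08 and 9.24 log2 units in quiescent cells and at most 6.78 in culture. It was at 8.33 and 8.62 at 2 weeks and 5.52 and 4.58 at 4 weeks. The 4-week arrays were the lowest of the 8. The difference was -4.10 ± 0.33 at 4 weeks (limma, adjusted p = 0.000266) and -2.77 ± 0.33 in culture (adjusted p = 0.00037). Itgax had the highest value of the role at 4 weeks, 0.31 ± 0.18 (adjusted p = 0.416), with levels of 4.08 to 4.98 that lay near the guide to dim signal.

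Genes with the most similar pattern to each member were ranked by Pearson r of log2 values over the 8 arrays, among 3500 genes whose group means spanned at least 1 log2 unit. They are a description without a test, since the 2 culture arrays stand apart for most of these genes. C4b was nearest to Nr4a1 (0.997), Sparcl1 (0.995) and Rin2 (0.995). C2 was nearest to Sema6d (0.997), Abcc9 (0.996) and Reln (0.995), and Reln is among the quiescent stellate markers listed here. Cfb was nearest to H2-T23 (0.995), Gm10499 (0.993) and Adamtsl2 (0.993). Serping1 was nearest to Tmem176b (0.997), Col14a1 (0.996) and Lgals3bp (0.996). For Cfi the nearest were Serpina1a (0.993), Hsd17b13 (0.987) and F2 (0.986), and Serpina1a is among the hepatocyte markers. For Cfp the nearest were Il18 (0.964), Hgd (0.961) and Adgre1 (0.954). Of these only Adgre1, the last in rank, is in a marker list here, that of macrophages.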

How the data were processed

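RNA of 8 samples was preamplified and hybridised to Affymetrix arrays, per the labels' protocols. The authors deposited log2 values from Affymetrix Expression Console (RMA), as named in the submitters' processing notes. Its version and the array's build are not given in the sources used here. Since RMA sets all arrays to 1 distribution, a shift of most genes together is hidden. Of 41345 probe sets, 23521 had 1 gene symbol, 1814 several and 16010 were not named. For the 1082 genes with several, the highest mean was used, and each of the 6 measured members had 1.

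The 5 comparisons among 4 groups were tested two-sided in a single fit of all 8 arrays (limma 3.58.1, R 4.3.3, lmFit and eBayes), adjusted by Benjamini-Hochberg over 22180 genes. The fit was tested on simulated data. Nothing in the labels says that a group's samples were separate animals or cultures: the p-values then measure only how these samples spread, perhaps technically, and 2 arrays per group limit the precision. An exact permutation test of 2 against 2 cannot go below p = 0.333 and was not used. Replicate numbers did not pair the arrays (r of replicate differences over genes between -0.042 and 0.074).

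Members and lists were chosen with earlier results of these data known. List genes were named where they had the highest or lowest change of their role in culture or at 4 weeks, or were called against most of their role. Alternatives changed the variance model, samples, filter (mean under 5 log2 units), probe sets, centring, block and each array in turn.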

Additional observations from a re-analysis of the deposited data

How the results depend on the processing

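All 6 falls in culture kept their direction and call under every alternative run, with a highest adjusted p of 0.0119 when 1 array was left out. Over all comparisons, members and alternatives, 408 results kept both, 13 lost a call, 12 gained one and 5 turned in sign. With only the groups compared in the fit, genes called fell from 1058 to 372 at 2 weeks and from 1932 to 1205 at 4 weeks, rose from 19 to 82 between CCl4 times, and list calls went from 11 to 5 at 2 weeks and from 2 to 5 between CCl4 times. In that fit Cfb at 2 weeks (-1.24), C4b (0.74) and Cfi (-2.14) at 4 weeks were not called, and Cfi in culture against CCl4 was (-1.13).

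The 2-week change of Cfi was called with the replicate block (-1.90, adjusted p = 0.0287), the low-value filter (-1.90), the mean of all probe sets (-1.90) and median-centred arrays (-1.89). Its change in culture against CCl4 was called with the block (-1.13, adjusted p = 0.0366) and the filter (-1.13). The block gave 9 genes in place of 19 between CCl4 times and changed no other member call. Without the 2 culture arrays, chosen after seeing the data, limma called 0 genes and 0 list genes there, with 1653 and 11 at an unadjusted p under 0.05. Centring turned Serping1 at 4 weeks from -0.02 to 0.03.

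Leaving out 1 array gave 260 to 1430 genes at 2 weeks, 652 to 2113 at 4 weeks, 0 to 85 between CCl4 times and 2846 to 5225 in culture against CCl4. List counts ran from 2 to 24, 9 to 27 and 0 to 4 in the first 3 of these. At 2 weeks Cfb ran from -1.57 to -0.91 and Cfi from -2.75 to -1.05. At 4 weeks C4b ran from 0.54 to 0.94, Cfb from -1.03 to -0.38, Cfi from -2.99 to -1.29 and Serping1 from -0.07 to 0.03. Between CCl4 times Cfi ran from -0.53 to 0.05 and Serping1 from -0.01 to 0.09. Where 0 genes were called, 1403 to 1745 had an unadjusted p under 0.05 in limma. In culture against CCl4 Cfi ran from -1.27 to -0.98 and Cfp from -0.65 to -0.34. Fewer arrays leave fewer degrees of freedom, and beyond that the cause of these shifts was not tested. Signal near the dim-signal guide limits Cfi after CCl4 and in culture.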

Other observations

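Between 4 and 2 weeks of CCl4, where 0.0586% of all genes were lower, limma called 2 of the 53 complement genes, both lower at 4 weeks. They are C1qb, a chain of the C1q starter protein made by macrophages, at 9.01 and 8.95 log2 units at 2 weeks and 7.40 and 7.26 at 4 weeks (-1.65 ± 0.18, adjusted p = 0.0321), and Vsig4 (-3.42 ± 0.33, adjusted p = 0.0321). The call was lost in 6 of the 8 fits that left out 1 array for C1qb (adjusted p 0.0708 to 0.335), all but those without a quiescent array, and in 5 for Vsig4 (0.0708 to 0.307), those without a culture array, a 2-week array or 4-week replicate 2. Both are among the macrophage markers listed here. Of the 13 macrophage markers 4 were lower at 4 than at 2 weeks, and C1qb and Vsig4 are 2 of these 4. The others were Cd68 and Csf1r, each with its call lost in 6 of the 8 fits that left out 1 array. The median of the 53 complement genes differed by -0.18.

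Where culture was set against the pooled CCl4 arrays, 2 of the 53 complement genes were higher, a smaller share than the 12.6% of all genes. Both are CD59 paralogs, inhibitors of pore assembly: Cd59a (1.65 ± 0.31, limma adjusted p = 0.00512) and Cd59b (0.95 ± 0.20, adjusted p = 0.0102). Cd59a was at 8.36 and 8.99 log2 units in culture, 7.18 and 7.41 at 2 weeks, a mean of 6.75 at 4 weeks, and 8.55 and 7.40 in quiescent cells, which overlapped culture. Leaving out culture replicate 2 ended the call of Cd59a (adjusted p = 0.0668), and leaving out culture replicate 1 ended that of Cd59b (adjusted p = 0.0847). Cross-hybridisation between the probe sets of these paralogs was not tested.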
